A study of Homo sapiens with 16 samples.

Results

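The response to Entinostat was measured in p53+/+ HCT116 cells, a human colorectal cancer cell line, by sequencing of polyadenylated RNA. Entinostat is a benzamide inhibitor of class I histone deacetylases (HDACs). The comparison sets 2 libraries of cells given 2.5 µM Entinostat for 8 hours against 2 libraries of cells given the vehicle DMSO, 4 of the 16 libraries of the series. It covers the 12466 of 20612 genes (60.5%) with a mean of at least 0.5 RPKM (reads per kilobase of gene and library size in alignments) over the 16 libraries. The other groups used here, also with 2 replicates and 8 hours, are p53+/+ cells with Nutlin-3A (5 µM) plus Entinostat (the combination) against Nutlin-3A alone, and p53-/- cells with Entinostat against DMSO. The p53-/- cells may differ from the p53+/+ cells in more than p53, and such differences cannot be told apart from p53 status here. Nutlin-3A frees p53 from its ubiquitin ligase MDM2. The labels do not say that the replicates were separate cultures. The p values therefore measure the spread between replicate libraries, pooled over the 8 groups of the series, which may be technical. Cells were measured in bulk, so a change in RNA per cell and a change in the mix of cells cannot be told apart.

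HDACs remove acetyl groups from lysines of histones and of other proteins. The class I enzymes HDAC1, HDAC2 and HDAC3 act at promoters and enhancers as the catalytic subunits of corepressor complexes such as Sin3, NuRD, CoREST and NCoR/SMRT, the second of which also carries a nucleosome remodeller. REST, a repressor that keeps neuronal genes silent outside neurons, recruits several of these complexes. Inhibitors of these enzymes raise histone acetylation within hours and are known for changing the expression of many genes in both directions, including genes that belong to other tissues. In colorectal cancer cells they are studied for arrest of growth, differentiation and sensitization to apoptosis.

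Entinostat changed 3434 genes (27.5% of those tested) at an adjusted p under 0.05, with 1887 (15.1%) higher and 1547 (12.4%) lower than with DMSO. Among them 369 rose (2.96% of genes) and 80 fell (0.642%) by at least 1 on the log2(RPKM + 0.5) scale, which is the scale of every log2 change given here and which understates the change of genes with low RPKM. With the replicate number added to the fit as a block, which compares libraries of the same number, 3020 rose and 2545 fell. Calls, SE and ranks below are from the fit without the block unless the block is named. In that fit, deviations shared by libraries of the same number count as error, so a gene not called may be called with the block. With 1 of the 4 libraries left out in turn, 480 to 1606 rose and 299 to 1191 fell, fewest without Entinostat replicate 1 (779 calls), then without DMSO replicate 2 (1326) and DMSO replicate 1 (1781), and most without Entinostat replicate 2 (2797). With each of the 4 omissions, 442 genes stayed higher (3.55%) and 265 stayed lower (2.13%), and these 707 genes (5.67%) are called stable here, with 202 rises (1.62%) and 34 falls (0.273%) of at least 1. Both Entinostat libraries lay above both DMSO libraries in 35.8% of all genes tested and below them in 33.2%, so groups that do not overlap are common here. The ranges given below for gene groups are the lowest and highest counts over the same 4 omissions. Each omission leaves 1 library in a group, which widens the error of the comparison, so a lost call need not mean a smaller change. Scaling of the libraries by the median of ratios left 1678 higher and 1925 lower, and quantile normalization left 1371 and 1544.

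**Figure D1:**
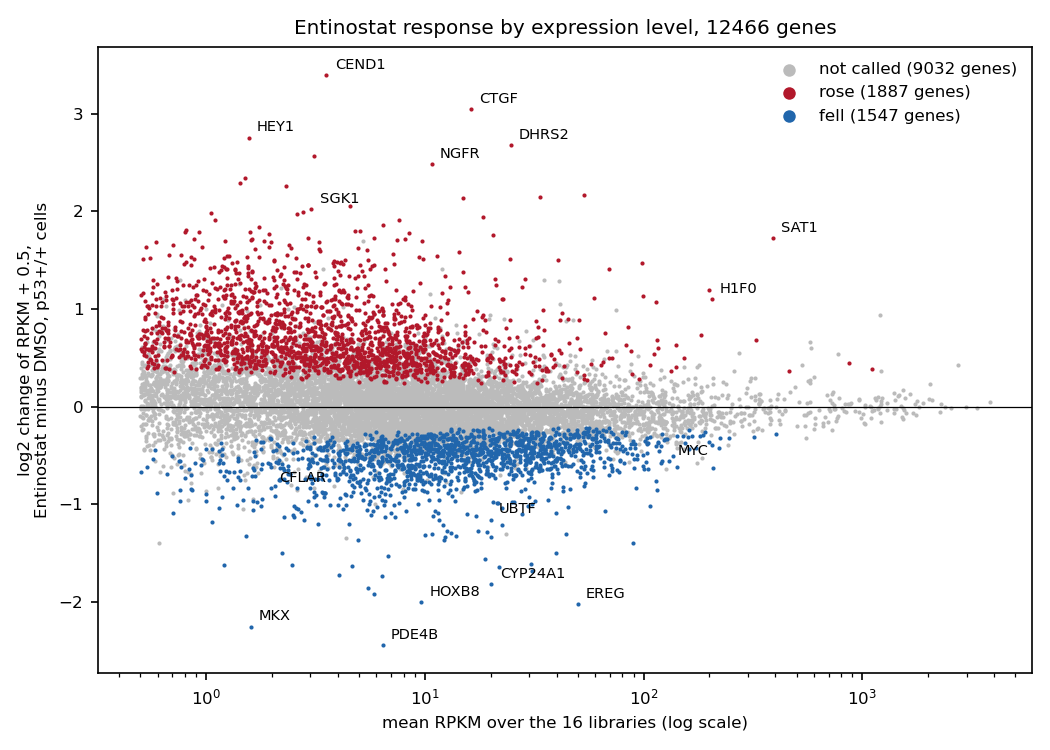
Log2 change of RPKM + 0.5, Entinostat minus DMSO, in p53+/+ cells (vertical axis) against mean RPKM over the 16 libraries on a log axis, 1 point a gene for 12466 genes. The 1887 genes that rose (red) lie mostly toward low RPKM and the 1547 that fell (blue) mostly above 5 RPKM, with CEND1 at the top and PDE4B at the bottom.

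Markers of the labelled cell type were examined first. Of 10 colorectal epithelial markers 8 reached 0.5 RPKM in the Entinostat libraries and in the DMSO libraries, and their summed level was 2981 and 2917 RPKM with Entinostat, against 2198 and 2393 RPKM with DMSO. The sum does not stand for each marker. Of these 8, 2 rose, 1 fell (CDX2, described below) and 5 were not called, beside 15.1% of all genes that rose and 12.4% that fell. VIL1 and CEACAM5 stayed under 0.5 RPKM in both groups, and CEACAM5 was listed at 0 in both DMSO libraries. Of 18 markers of other cell types, 14 stayed under 0.5 RPKM in both groups, HBB, PECAM1 and COL1A2 were listed at 0 in all 4 libraries, and the summed level was 15.1 and 13.1 RPKM with Entinostat, against 9.42 and 8.6 RPKM with DMSO, most of it from COL1A1, CD68, HBA1 and ACTA2. Alignments per library were 48782900 and 55507300 with Entinostat and 48353200 and 51556000 with DMSO.

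Promoter sequences are shown for CEND1, DHRS2 and CTGF, which are among the 14 largest rises, and for UBTF, a stable fall, because their promoters differ in composition. They are the 250 bases before and 50 after the RefSeq start, 5′ to 3′ on the gene's strand, from RefSeq on GRCh38.p14 (the deposited values are on hg19). Capitals mark a GC box (GGGCGG, or CCGCCC on the other strand) or a TATA box (TATAAA, or TTTATA on the other strand).
CEND1: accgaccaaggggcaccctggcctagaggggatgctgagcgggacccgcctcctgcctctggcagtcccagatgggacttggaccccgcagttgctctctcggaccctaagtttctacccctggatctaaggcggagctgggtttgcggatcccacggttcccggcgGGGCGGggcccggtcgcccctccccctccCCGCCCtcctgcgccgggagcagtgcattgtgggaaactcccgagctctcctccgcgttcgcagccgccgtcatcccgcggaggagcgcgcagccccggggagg
DHRS2: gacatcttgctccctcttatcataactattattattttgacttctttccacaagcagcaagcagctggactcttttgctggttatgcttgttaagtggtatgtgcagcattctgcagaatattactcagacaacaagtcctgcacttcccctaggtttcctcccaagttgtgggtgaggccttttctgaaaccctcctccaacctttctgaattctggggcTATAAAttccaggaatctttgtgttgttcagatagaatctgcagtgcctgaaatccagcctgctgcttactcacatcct
CTGF: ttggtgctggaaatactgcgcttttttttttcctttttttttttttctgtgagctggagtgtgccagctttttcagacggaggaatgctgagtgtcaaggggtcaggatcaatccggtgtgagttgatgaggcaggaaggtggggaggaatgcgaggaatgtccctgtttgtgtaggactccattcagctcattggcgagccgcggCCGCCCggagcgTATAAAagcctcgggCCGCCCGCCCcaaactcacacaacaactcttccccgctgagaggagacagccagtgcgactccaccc
UBTF: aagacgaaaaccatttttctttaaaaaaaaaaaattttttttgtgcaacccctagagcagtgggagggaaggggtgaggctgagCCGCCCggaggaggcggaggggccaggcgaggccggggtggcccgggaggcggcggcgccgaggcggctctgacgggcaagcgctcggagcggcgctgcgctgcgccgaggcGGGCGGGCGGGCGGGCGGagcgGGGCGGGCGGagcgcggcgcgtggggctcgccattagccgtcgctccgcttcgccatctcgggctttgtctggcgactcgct
The CEND1 promoter (chr11:790041-790340, minus strand) is 70.7% G and C with 27 CpG and 2 GC boxes, and the UBTF promoter (chr17:44220833-44221132, minus strand) is 69.3% G and C with 40 CpG and 7 GC boxes, several of them overlapping. The DHRS2 promoter (chr14:23629865-23630164, plus strand) is 44% G and C with no CpG, no GC box and 1 TATA box. The CTGF promoter (chr6:131951323-131951622, minus strand) is 54.3% G and C with 15 CpG, 3 GC boxes and 1 TATA box. Over all 27305 RefSeq promoters of this length the median is 58.3% G and C and 14 CpG, 44.6% hold a GC box and 12% a TATA box. These matches describe letters in a window and say nothing of which factors bind there.

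CEND1, a membrane protein that promotes cell cycle exit in neuronal precursors, had 11.4 and 3.67 RPKM with Entinostat, against 0.153 and 0.193 RPKM with DMSO (log2 change 3.39 ± 0.65 SE, adjusted p = 0.0038). Both Entinostat libraries were far above both DMSO libraries, and Entinostat replicate 1 was well above replicate 2. HEY1, a transcriptional repressor that Notch signalling induces, had 5.05 and 2.65 RPKM with Entinostat, against 0.163 and 0.077 RPKM with DMSO (log2 change 2.76 ± 0.34 SE, adjusted p = 0.00062). DHRS2, a short-chain dehydrogenase known for its induction by HDAC inhibitors, had 77.4 and 36.1 RPKM with Entinostat, against 8.47 and 7.26 RPKM with DMSO (log2 change 2.68 ± 0.47 SE, adjusted p = 0.0026), so it was the most abundant of these markers before treatment and after it. CTGF, a matricellular protein and a classical target of the coactivator YAP, had 16.9 and 7.39 RPKM with Entinostat, against 0.791 and 1.07 RPKM with DMSO (log2 change 3.04 ± 0.66 SE, adjusted p = 0.0067). In these 4 genes the groups did not overlap and Entinostat replicate 1 was the higher of the Entinostat libraries. HEY1 and DHRS2 were called with each library left out. The calls of CEND1 and CTGF were lost without Entinostat replicate 1 (adjusted p = 0.055 to 0.079).

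The other 10 of the 14 largest rises follow. NGFR, the p75 receptor of neurotrophins, had 27.9 and 11.1 RPKM with Entinostat, against 3.59 and 2.08 RPKM with DMSO (log2 change 2.48 ± 0.59 SE, adjusted p = 0.0099). VGF, the precursor of secreted neuropeptides, had 78.9 and 38.1 RPKM with Entinostat, against 12 and 11.7 RPKM with DMSO (log2 change 2.16 ± 0.54 SE, adjusted p = 0.013). MAP2, a microtubule-binding protein of dendrites, had 5.23 and 2.75 RPKM with Entinostat, against 0.468 and 0.342 RPKM with DMSO (log2 change 2.26 ± 0.41 SE, adjusted p = 0.003). All 3 had both Entinostat libraries above both DMSO libraries, with replicate 1 well above replicate 2. TUBA1A, an alpha tubulin of developing neurons, had 70.5 and 39.3 RPKM with Entinostat, against 13.3 and 10.0 RPKM with DMSO (log2 change 2.14 ± 0.49 SE, adjusted p = 0.0088), and because alpha tubulin genes are nearly identical its reads may be shared with its copies. CXCR4, the receptor of the chemokine CXCL12, had 3.58 and 1.92 RPKM with Entinostat, against 0.084 and 0.158 RPKM with DMSO (log2 change 2.34 ± 0.41 SE, adjusted p = 0.0026). SGK1, a kinase of the AKT family induced by serum and glucocorticoids, had 4.56 and 3.43 RPKM with Entinostat, against 0.552 and 0.651 RPKM with DMSO (log2 change 2.02 ± 0.23 SE, adjusted p = 0.00053). CXCR4 was nearly silent with DMSO, while SGK1 was already detectable with DMSO. ZCCHC12, a coactivator in bone morphogenetic protein signalling, rose by 2.57 and EFR3B, which anchors a phosphatidylinositol 4-kinase to the plasma membrane, by 2.28. EPPK1, a keratin-binding epiplakin (2.14, adjusted p = 0.00026), and FA2H, which makes hydroxylated sphingolipids (2.05, adjusted p = 0.0018), complete the 14. NGFR, TUBA1A, VGF and ZCCHC12 lost their calls when 1 library was left out. The losses were 4 without Entinostat replicate 1 (adjusted p = 0.051 to 0.13), 1 without DMSO replicate 1 (0.057) and 3 without DMSO replicate 2 (0.068 to 0.081).

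**Figure D2:**
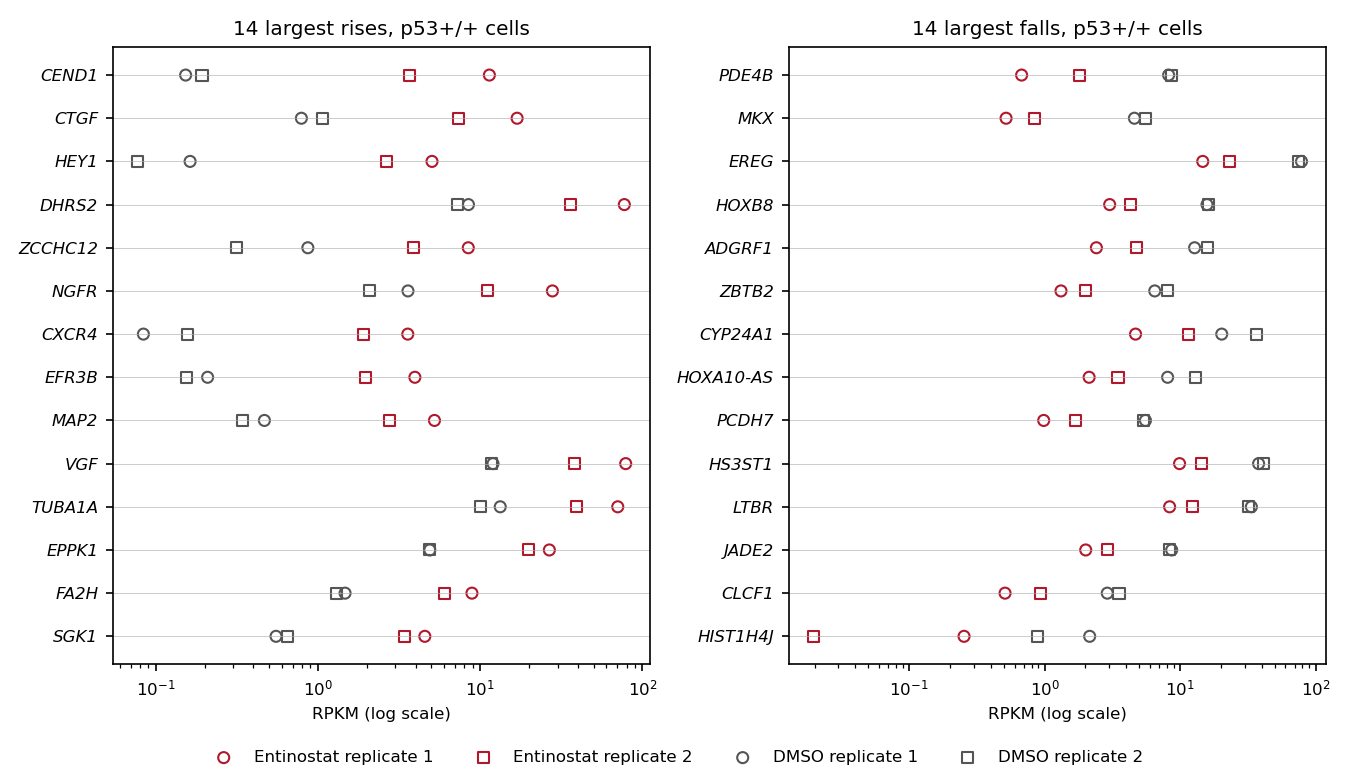
RPKM (log axis) of the 14 genes with the largest rises (left) and the 14 with the largest falls (right) in each of the 4 libraries of p53+/+ cells, Entinostat in red and DMSO in grey, circles for replicate 1 and squares for replicate 2. The red and grey points do not overlap in any of the 28 genes, and replicate 1 lies farther from DMSO than replicate 2 in all but HIST1H4J.

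Among rises of at least 1 that were stable, the 10 with the largest moderated t include the genes given here. SLFN5, a Schlafen family protein, had 9.04 and 7.7 RPKM with Entinostat, against 2.08 and 2.26 RPKM with DMSO (log2 change 1.73 ± 0.13 SE, adjusted p = 0.00018). TMOD2, the neuronal tropomodulin that caps actin filaments, had 4.27 and 4.14 RPKM with Entinostat, against 1.02 and 1.04 RPKM with DMSO (log2 change 1.62 ± 0.13 SE, adjusted p = 0.00018). GRHL1, a grainyhead-like transcription factor of epithelia, had 9.73 and 8.65 RPKM with Entinostat, against 3.12 and 2.99 RPKM with DMSO (log2 change 1.44 ± 0.12 SE, adjusted p = 0.00018). In each of the 3 genes the replicates lay close together and far from the other group. NES, which encodes the intermediate filament nestin of neural precursors, had 11.9 and 10.1 RPKM with Entinostat, against 4.05 and 2.84 RPKM with DMSO (log2 change 1.56 ± 0.15 SE, adjusted p = 0.00023). SERPINB9, an inhibitor of granzyme B, had 44.6 and 36.8 RPKM with Entinostat, against 12.8 and 10.6 RPKM with DMSO (log2 change 1.75 ± 0.17 SE, adjusted p = 0.00026). PDGFRL, which resembles a receptor of platelet-derived growth factor, rose by 1.41, the small GTPase RHOU by 1.84, the formin FHDC1 by 1.37 and the ubiquitin ligase RNF128 by 1.34, each with the Entinostat libraries above the DMSO libraries. NEAT1, the long noncoding RNA that builds paraspeckles, was looked up after its values were seen, because it had 25.1 and 31.9 RPKM with Entinostat, against 6.76 and 7.27 RPKM with DMSO (log2 change 1.94 ± 0.22 SE, adjusted p = 0.00053), the reverse of the usual order of the replicates.

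The 14 largest falls were led by PDE4B and MKX. PDE4B, a phosphodiesterase that breaks down cyclic AMP, had 0.676 and 1.8 RPKM with Entinostat, against 8.23 and 8.61 RPKM with DMSO (log2 change -2.44 ± 0.42 SE, adjusted p = 0.0024). EREG, the growth factor epiregulin that activates the EGF receptor, had 14.7 and 23.2 RPKM with Entinostat, against 78.8 and 74.7 RPKM with DMSO (log2 change -2.02 ± 0.25 SE, adjusted p = 0.00059). MKX, a homeobox factor of tendon, had 0.519 and 0.845 RPKM with Entinostat, against 4.6 and 5.59 RPKM with DMSO (log2 change -2.25 ± 0.21 SE, adjusted p = 0.00023). In all 3 both Entinostat libraries were lower than both DMSO libraries, replicate 1 more so. HOXB8, a homeobox factor of axial patterning, had 3.02 and 4.29 RPKM with Entinostat, against 15.8 and 16.1 RPKM with DMSO (log2 change -2.0 ± 0.22 SE, adjusted p = 0.00048). CYP24A1, the hydroxylase that inactivates vitamin D, had 4.69 and 11.5 RPKM with Entinostat, against 20.3 and 36.8 RPKM with DMSO (log2 change -1.82 ± 0.62 SE, adjusted p = 0.046), with a wide gap between the replicates of each group, and its change came to -1.21 without Entinostat replicate 1. ZBTB2, a zinc finger repressor, changed by -1.86 and the heparan sulfate sulfotransferase HS3ST1 by -1.68. LTBR, the lymphotoxin beta receptor of the TNF receptor superfamily, had 8.37 and 12.4 RPKM with Entinostat, against 33.6 and 32.1 RPKM with DMSO (log2 change -1.64 ± 0.21 SE, adjusted p = 0.00073). ADGRF1, an adhesion G protein-coupled receptor (-1.92), the protocadherin PCDH7 (-1.72), JADE2, a subunit of HBO1 histone acetyltransferase complexes (-1.63), and the cytokine CLCF1 (-1.62) also fell. HOXA10-AS (-1.74) lies antisense to HOXA genes and the strand setting of the counting is not given, so its reads may come in part from those genes. HIST1H4J, a replication-dependent histone H4 gene with near-identical copies whose transcripts normally lack a poly(A) tail, had 0.254 and 0.0195 RPKM with Entinostat, against 2.15 and 0.892 RPKM with DMSO (log2 change -1.62 ± 0.51 SE, adjusted p = 0.034), and its change came to -1.15 without DMSO replicate 1. Of the genes named here, ADGRF1, CLCF1, CYP24A1, HIST1H4J, HOXA10-AS and PCDH7 lost their calls with 1 library left out. These were 6 without Entinostat replicate 1 (adjusted p = 0.055 to 0.32), 1 without Entinostat replicate 2 (0.14), 2 without DMSO replicate 1 (0.07 to 0.21) and 3 without DMSO replicate 2 (0.051 to 0.25). CYP24A1 and HIST1H4J also lost calls without a filter on low values, after quantile normalization or with a pseudocount of 0.1 (adjusted p = 0.05 to 0.11).

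The falls of at least 1 that were stable and had the largest moderated t include MKX, HOXB8 and EREG again, and genes of folate uptake, rRNA synthesis and redox control. SLC19A1, the reduced folate carrier, had 7.83 and 7.85 RPKM with Entinostat, against 20.7 and 19.2 RPKM with DMSO (log2 change -1.29 ± 0.12 SE, adjusted p = 0.00023). UBTF, the factor that bends promoters of ribosomal RNA genes for RNA polymerase I, had 12.8 and 15.2 RPKM with Entinostat, against 31.1 and 32.4 RPKM with DMSO (log2 change -1.16 ± 0.13 SE, adjusted p = 0.00057). KEAP1, the adaptor that targets the antioxidant factor NRF2 for degradation, had 17.3 and 19.1 RPKM with Entinostat, against 39.9 and 39.4 RPKM with DMSO (log2 change -1.10 ± 0.13 SE, adjusted p = 0.00057). In each of these genes the replicates lay close together and both Entinostat libraries were well below both DMSO libraries. PBDC1 (-1.16), FAM57A (-1.34), the keratin-associated FAM83H (-1.22) and the noncoding PP7080 (-1.11) complete the 10.

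Gene groups are described next, in the order of drug target, chromatin, lineage genes, growth, death and metabolism. The groups share members, and their shares of rises and falls stand against 15.1% and 12.4% of all genes. The shares over all genes vary with expression: 24.7% rose and 2.52% fell at a mean of 0.5 to 1 RPKM. From 20 to 50 RPKM 4.87% rose and 21.7% fell, and the lists were not matched for level. A gene silent with DMSO could pass the filter through libraries in which it is high, so list counts hold for tested members only. Of the HDAC genes themselves, 1 of 10 rose and 1 fell, with a median log2 change of 0.06. The block gave 3 rises and 2 falls, and without 1 of the libraries 0 to 1 rose and 0 to 1 fell. Median of ratios scaling gave 1 rise and 2 falls and quantile normalization gave 1 rise and 2 falls. HDAC1 had 155 and 140.0 RPKM with Entinostat, against 140.1 and 124 RPKM with DMSO (0.16, adjusted p = 0.35). HDAC2 had 30.4 and 29.3 RPKM with Entinostat, against 29.8 and 29.9 RPKM with DMSO (0.00, adjusted p = 0.98). HDAC3 had 56.2 and 47.7 RPKM with Entinostat, against 46.8 and 43 RPKM with DMSO (0.20, adjusted p = 0.29). None of the 3 class I enzymes that Entinostat binds was called, and the called members were the class II enzymes HDAC5 (0.60, adjusted p = 0.0094) and HDAC7 (-0.96, adjusted p = 0.011). Of corepressor subunits, 2 of 42 rose and 3 fell, with a median log2 change of -0.01. With the block 4 rose and 8 fell, and omission of 1 library left 0 to 1 rises and 1 to 3 falls. The 4 libraries fitted alone gave 1 rise and 3 falls, quantile normalization gave 2 rises and 5 falls, median of ratios scaling gave 1 rise and 6 falls and a fit of all genes gave 0 rises and 3 falls. The shares of subunits that rose (4.76%) and fell (7.14%) lay below the 15.1% and 12.4% of all genes. MBD3 had 17.9 and 19.3 RPKM with Entinostat, against 29.1 and 31.9 RPKM with DMSO (log2 change -0.70 ± 0.13 SE, adjusted p = 0.003). MTA2 fell (-0.68), as did BRMS1 (-0.56), and the risers were GATAD2B (0.30) and CORO2A (0.74). Of the opposing group of histone acetyltransferases, BET readers and P-TEFb subunits, 0 of 18 rose and 5 fell, with a median log2 change of -0.10. Omission of 1 library left 0 to 1 rises and 2 to 3 falls, and the block gave 1 rise and 8 falls. KAT5, the catalytic subunit of the TIP60 complex, had 13.6 and 15 RPKM with Entinostat, against 23.8 and 23.8 RPKM with DMSO (log2 change -0.72 ± 0.08 SE, adjusted p = 0.00057). EP300 had 7.21 and 7.38 RPKM with Entinostat, against 10.5 and 10.6 RPKM with DMSO (log2 change -0.50 ± 0.09 SE, adjusted p = 0.0032). Its relative CREBBP had a change of -0.50, while KAT6B (-0.35) and HEXIM2, an inhibitor of P-TEFb (-0.55), fell as well. BRMS1, CORO2A, CREBBP, GATAD2B, HDAC5, HDAC7, HEXIM2, KAT6B and MTA2 lost their calls when 1 library was left out. The losses were 9 without Entinostat replicate 1 (adjusted p = 0.055 to 0.21), 4 without Entinostat replicate 2 (0.051 to 0.13), 3 without DMSO replicate 1 (0.051 to 0.065) and 8 without DMSO replicate 2 (0.051 to 0.32). CORO2A, GATAD2B and KAT6B also lost calls without a filter on low values, after median of ratios scaling, after quantile normalization or in a fit of the 4 libraries alone (adjusted p = 0.051 to 0.084). HDAC1 and HDAC3 were called with the block (adjusted p = 0.032 to 0.042).

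A list of genes that HDAC inhibitors are known to raise in other cells was chosen for that direction. Of its members, 9 of 18 rose and 0 fell, with a median log2 change of 0.80. With the block 15 rose and 0 fell, and without 1 of the libraries 2 to 9 rose and 0 fell. SAT1, which acetylates polyamines, had 636 and 469 RPKM with Entinostat, against 201 and 136 RPKM with DMSO (log2 change 1.72 ± 0.37 SE, adjusted p = 0.0064). The secreted chaperone CLU had 84.4 and 71.1 RPKM with Entinostat, against 31.3 and 40.4 RPKM with DMSO (log2 change 1.11 ± 0.25 SE, adjusted p = 0.0073). H1F0, the linker histone of non-dividing cells, had 341 and 324 RPKM with Entinostat, against 150.3 and 159 RPKM with DMSO (log2 change 1.10 ± 0.14 SE, adjusted p = 0.00075). Both Entinostat libraries were higher in each of the 3 genes, and H1F0 was the most alike between replicates. KLF2 (1.51), KLF6 (0.50), the zinc-binding MT1X (1.47) and CRIP2 (0.96) rose as well, and the stress gene GADD45B, which was not called, had 26.9 and 17.2 RPKM with Entinostat, against 10.4 and 11.5 RPKM with DMSO (0.94, adjusted p = 0.058). Of genes known to be lowered elsewhere, 1 of 17 rose and 6 fell, with a median log2 change of -0.30. The block gave 1 rise and 9 falls, and without 1 of the libraries 0 rose and 0 to 5 fell. A fit without the filter gave 0 rises and 5 falls and quantile normalization gave 0 rises and 5 falls. HMGA2, a chromatin protein of embryonic cells, had 8.36 and 14.6 RPKM with Entinostat, against 33.4 and 36.2 RPKM with DMSO (log2 change -1.61 ± 0.40 SE, adjusted p = 0.013). MYB went the other way with 3.34 and 3.53 RPKM with Entinostat, against 2.55 and 2.2 RPKM with DMSO (log2 change 0.46 ± 0.14 SE, adjusted p = 0.032). TYMS (-0.43), ERBB2 (-0.40) and BCL2L1 (-0.56) fell by less than 0.6. CDKN1A, which encodes the CDK inhibitor p21 and is the gene most often cited for induction by HDAC inhibitors, had 121 and 104 RPKM with Entinostat, against 89.2 and 66.1 RPKM with DMSO (log2 change 0.55 ± 0.37 SE, adjusted p = 0.3). Its Entinostat libraries were both higher, but it was not called without the block. Of the CDK inhibitors, 1 of 8 rose and 1 fell, with a median log2 change of 0.54. Omission of 1 library left 1 rise and 0 to 1 falls, and with the block 5 rose and 1 fell. The 4 libraries fitted alone gave 4 rises and 1 fall and quantile normalization gave 2 rises and 1 fall. CDKN2B, which encodes p15, had 4.26 and 3.44 RPKM with Entinostat, against 1.03 and 0.986 RPKM with DMSO (log2 change 1.52 ± 0.24 SE, adjusted p = 0.0015). CDKN1B, which encodes p27, had 6.34 and 8.43 RPKM with Entinostat, against 11.9 and 11.4 RPKM with DMSO (log2 change -0.63 ± 0.14 SE, adjusted p = 0.0071). Calls that were lost with 1 library left out were those of BCL2L1, CDKN1B, CLU, CRIP2, ERBB2, HMGA2, KLF2, KLF6, MT1X, MYB, SAT1 and TYMS. They were 12 without Entinostat replicate 1 (adjusted p = 0.071 to 0.33), 3 without Entinostat replicate 2 (0.056 to 0.12), 8 without DMSO replicate 1 (0.052 to 0.13) and 10 without DMSO replicate 2 (0.063 to 0.28). CRIP2, KLF6, MYB and TYMS also lost calls without a filter on low values, with the filter at a mean of 1 RPKM, after median of ratios scaling, after quantile normalization or with a pseudocount of 1 (adjusted p = 0.05 to 0.18). CDKN1A and GADD45B were called with the block (adjusted p = 0.0041 to 0.014).

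Of histone genes that are expressed outside S phase or as variants, 3 of 18 rose and 1 fell, with a median log2 change of 0.47. The block gave 10 rises and 1 fall, and omission of 1 library left 1 to 4 rises and 1 fall. The 4 libraries fitted alone gave 5 rises and 1 fall. Besides H1F0, the linker histone H1FX had 184 and 131 RPKM with Entinostat, against 76.5 and 65.1 RPKM with DMSO (log2 change 1.13 ± 0.26 SE, adjusted p = 0.0096). H2AFX, the variant phosphorylated at DNA breaks, had 239 and 179 RPKM with Entinostat, against 137 and 129 RPKM with DMSO (log2 change 0.64 ± 0.20 SE, adjusted p = 0.034). H2AFY2, a macroH2A variant, was lower with 9.8 and 13.6 RPKM with Entinostat, against 22 and 20.6 RPKM with DMSO (log2 change -0.85 ± 0.16 SE, adjusted p = 0.0033). HIST1H1C, a gene with near-identical paralogs, was not called at 23.3 and 11.6 RPKM with Entinostat, against 10.5 and 7.05 RPKM with DMSO (0.90, adjusted p = 0.18), with the replicates of each group far apart and in the same order. Of the genes named here, H1FX and H2AFX lost their calls with 1 library left out. These were 2 without Entinostat replicate 1 (adjusted p = 0.11 to 0.28), 1 without DMSO replicate 1 (0.093) and 2 without DMSO replicate 2 (0.074 to 0.15). H2AFX was also not called without a filter on low values (adjusted p = 0.074). HIST1H1C was called with the block (adjusted p = 0.0015).

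**Figure D3:**
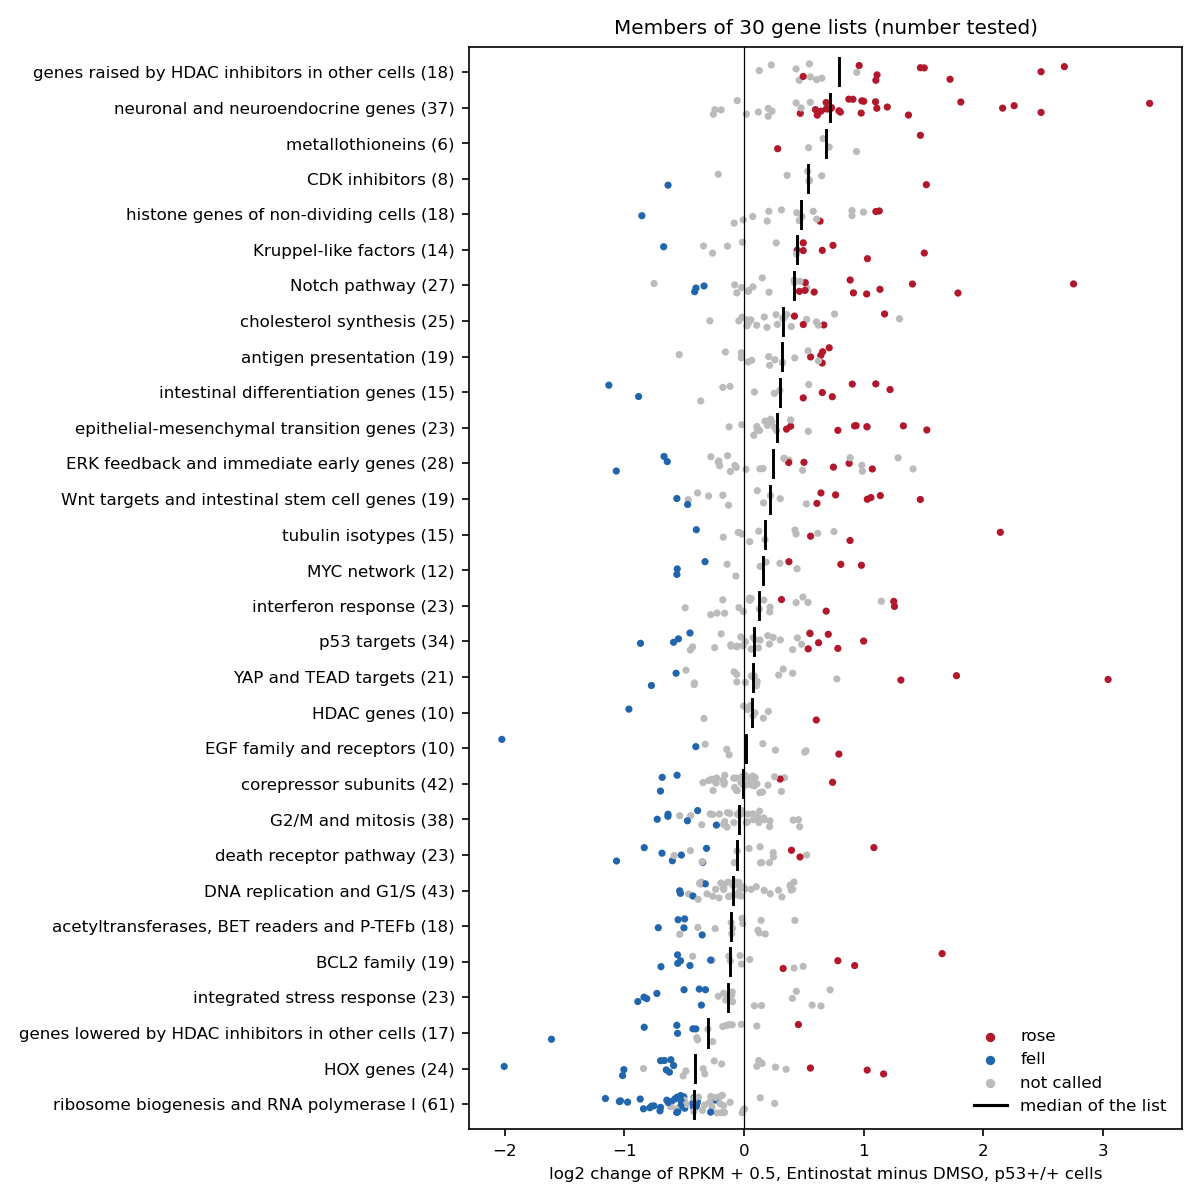
Log2 change, Entinostat minus DMSO in p53+/+ cells, of each tested member of 30 gene lists, ordered by the median of the list (black bar), with members that rose in red, fell in blue and were not called in grey. Genes raised by HDAC inhibitors in other cells (0.80) and neuronal genes (0.72) stand at the top and ribosome biogenesis genes (-0.42) at the bottom. The lists were chosen with earlier results of these data known, so this order is descriptive and was not tested. The medians of the YAP, EGF and interferon lists change sign to -0.06, -0.15 and -0.02 after quantile normalization, and that of the G2/M list to 0.02.

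Of 64 listed neuronal and neuroendocrine genes 37 were tested, and of these 25 of 37 rose and 0 fell, with a median log2 change of 0.72. With the block 28 rose and 0 fell, and without 1 of the libraries 6 to 24 rose and 0 fell. Quantile normalization left 17 rises. Because a gene silent with DMSO could pass the filter on low values through the libraries in which it is high, these counts hold for the tested members only. The list was also chosen with earlier results of these data known. It holds CEND1, MAP2, NGFR and VGF, which were named above for their large rises, so its counts and median are set in part by that choice. The rises included genes of vesicle release. SYP had 2.85 and 1.43 RPKM with Entinostat, against 0.536 and 0.685 RPKM with DMSO (log2 change 1.20 ± 0.37 SE, adjusted p = 0.032). STX1A had 8.63 and 9.85 RPKM with Entinostat, against 5.09 and 5.64 RPKM with DMSO (log2 change 0.73 ± 0.11 SE, adjusted p = 0.0014). The syntaxin STX1A, which drives vesicle fusion, had replicates close together, while SYP, a vesicle membrane protein, was much higher in Entinostat replicate 1 than in replicate 2. SYT11 (1.81), SYNGR3 (1.10), SYN2 (0.73), RAB3A (0.69) and the active zone scaffolds BSN (0.60) and PCLO (0.81) rose as well. Among other genes of neurons, the enolase ENO2 had 41 and 41.4 RPKM with Entinostat, against 21.4 and 19.8 RPKM with DMSO (log2 change 0.99 ± 0.16 SE, adjusted p = 0.0019). The microtubule protein MAP1B had 3.89 and 3.34 RPKM with Entinostat, against 1.62 and 1.55 RPKM with DMSO (log2 change 0.98 ± 0.16 SE, adjusted p = 0.0017). The adhesion molecule L1CAM (1.00), the collapsin response mediators DPYSL4 (0.72) and DPYSL5 (0.88), the Notch ligand DNER (1.11) and GPRIN1 (0.64), MAPK8IP1 (0.91), MAPK8IP2 (0.69), RTN2 (0.79) and CELSR3 (0.47) rose as well, beside CEND1, MAP2, NGFR and VGF. Of tubulin isotypes, 3 of 15 rose and 1 fell, with a median log2 change of 0.18. Without 1 of the libraries 0 to 4 rose and 0 to 1 fell, and the block gave 5 rises and 1 fall. A fit without the filter gave 1 rise and 1 fall and a fit of the 4 libraries alone gave 5 rises and 1 fall. TUBB2A had 61.1 and 41.4 RPKM with Entinostat, against 26.4 and 27.6 RPKM with DMSO (log2 change 0.89 ± 0.26 SE, adjusted p = 0.027). TUBB, the main beta tubulin of dividing cells, had 64.5 and 65.1 RPKM with Entinostat, against 84 and 87.2 RPKM with DMSO (log2 change -0.40 ± 0.10 SE, adjusted p = 0.011). BSN, CELSR3, DNER, DPYSL4, GPRIN1, L1CAM, MAPK8IP1, MAPK8IP2, PCLO, RAB3A, RTN2, SYN2, SYNGR3, SYP, SYT11, TUBB and TUBB2A lost their calls when 1 library was left out. Of them, 17 did so without Entinostat replicate 1 (adjusted p = 0.054 to 0.29), 2 without Entinostat replicate 2 (0.052 to 0.057), 7 without DMSO replicate 1 (0.063 to 0.13) and 13 without DMSO replicate 2 (0.054 to 0.16). BSN, CELSR3, DPYSL4, L1CAM, MAPK8IP2, RAB3A, SYN2, SYP, SYT11 and TUBB2A also lost calls without a filter on low values, after quantile normalization or in a fit of the 4 libraries alone (adjusted p = 0.05 to 0.36). CEND1, NGFR and VGF, given above and not counted here, also lost their calls with 1 library left out.

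The Notch pathway, in which a ligand on a neighbouring cell triggers cleavage of the receptor, whose released part switches on HES and HEY repressors, moved at several levels. Of its members, 11 of 27 rose and 3 fell, with a median log2 change of 0.42. With the block 15 rose and 4 fell, and omission of 1 library left 6 to 11 rises and 0 to 4 falls. The ligand DLL4 had 4.32 and 2.48 RPKM with Entinostat, against 0.763 and 0.453 RPKM with DMSO (log2 change 1.79 ± 0.30 SE, adjusted p = 0.002), and JAG1 rose by 0.46. JAG2 had 13.7 and 14.2 RPKM with Entinostat, against 18.9 and 18.6 RPKM with DMSO (log2 change -0.41 ± 0.10 SE, adjusted p = 0.011), so ligands moved in both directions. The receptor NOTCH3 had 8.17 and 6.91 RPKM with Entinostat, against 4.57 and 3.2 RPKM with DMSO (log2 change 0.89 ± 0.16 SE, adjusted p = 0.0031). Of the receptor-modifying fringe enzymes LFNG rose (1.03) and RFNG fell (-0.33), and of the mastermind coactivators MAML3 (1.14) and MAML2 (0.51) rose and MAML1 (-0.40) fell. Other HES and HEY family genes rose beside HEY1. HES1 had 12.6 and 10.4 RPKM with Entinostat, against 6.02 and 5.65 RPKM with DMSO (log2 change 0.91 ± 0.15 SE, adjusted p = 0.002). HES2 had 7.78 and 5.79 RPKM with Entinostat, against 2.5 and 1.97 RPKM with DMSO (log2 change 1.41 ± 0.22 SE, adjusted p = 0.0015). HEYL rose by 0.59 and the feedback inhibitor NRARP by 0.51. Among targets of YAP and TEAD, 3 of 21 rose and 2 fell, with a median log2 change of 0.07. The block gave 7 rises and 5 falls, and omission of 1 library left 1 to 3 rises and 1 to 4 falls. The median turned to -0.06 after quantile normalization. Beside CTGF, its relative CYR61 had 34.8 and 18.7 RPKM with Entinostat, against 10.1 and 9.85 RPKM with DMSO (log2 change 1.31 ± 0.42 SE, adjusted p = 0.035). THBS1, thrombospondin of the matrix, had 12.6 and 8.51 RPKM with Entinostat, against 2.28 and 3.1 RPKM with DMSO (log2 change 1.78 ± 0.32 SE, adjusted p = 0.0027). AJUBA (-0.77) and FJX1 (-0.57) fell, so the rises of the 3 secreted matrix proteins were not shared by the list. CYR61, FJX1, HEYL, JAG1, JAG2, LFNG, MAML1, MAML2, NRARP and RFNG lost their calls when 1 library was left out. The losses were 10 without Entinostat replicate 1 (adjusted p = 0.052 to 0.29), 1 without Entinostat replicate 2 (0.12), 8 without DMSO replicate 1 (0.05 to 0.14) and 8 without DMSO replicate 2 (0.055 to 0.14). CYR61, MAML2 and RFNG also lost calls without a filter on low values, after median of ratios scaling, after quantile normalization or with a pseudocount of 0.1 (adjusted p = 0.05 to 0.29). CTGF, given above and not counted here, also lost its call with 1 library left out.

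HOX genes, which pattern the body axis and stay expressed in colonic epithelium, moved in both directions. Of the HOX genes tested, 3 of 24 rose and 9 fell, with a median log2 change of -0.41. Without 1 of the libraries 2 to 3 rose and 2 to 10 fell, and with the block 4 rose and 14 fell. In the HOXB cluster 5 of 8 fell and 0 rose (median -0.66), and in the HOXA cluster 4 of 10 fell and 1 rose (-0.50). HOXB4 had 3.24 and 4.89 RPKM with Entinostat, against 7.17 and 10.1 RPKM with DMSO (log2 change -1.0 ± 0.23 SE, adjusted p = 0.0085). HOXA11 had 1.47 and 1.87 RPKM with Entinostat, against 3.57 and 4.19 RPKM with DMSO (log2 change -1.01 ± 0.15 SE, adjusted p = 0.0014), both lower in each Entinostat library. HOXB7 (-0.65), HOXB9 (-0.61), HOXB5 (-0.67), HOXA9 (-0.70), HOXA5 (-0.62) and HOXA6 (-0.59) fell as well. HOXC10 (0.56) and HOXD8 (1.03) rose, as 1 of 5 HOXC genes and the single HOXD gene tested. Neighbouring HOX genes overlap with antisense transcripts, so reads of the weaker ones may be shared. Calls that were lost with 1 library left out were those of HOXA5, HOXA6, HOXA9, HOXB4, HOXB5, HOXB7, HOXB9 and HOXC10. They were 8 without Entinostat replicate 1 (adjusted p = 0.067 to 0.3), 1 without Entinostat replicate 2 (0.063), 6 without DMSO replicate 1 (0.054 to 0.24) and 7 without DMSO replicate 2 (0.054 to 0.19). HOXA5, HOXA6, HOXB5 and HOXC10 also lost calls without a filter on low values or after quantile normalization (adjusted p = 0.058 to 0.18).

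Genes of the intestinal epithelium moved in both directions. CDX2, the master regulator of intestinal identity, had 3.27 and 3.34 RPKM with Entinostat, against 6.27 and 6.75 RPKM with DMSO (log2 change -0.88 ± 0.09 SE, adjusted p = 0.00036). EHF, an ETS factor of epithelia, had 4.55 and 7.39 RPKM with Entinostat, against 13.2 and 13.4 RPKM with DMSO (log2 change -1.13 ± 0.26 SE, adjusted p = 0.0095). In both genes the Entinostat libraries lay below the DMSO libraries. ELF3, another epithelial ETS factor, had 33 and 36.3 RPKM with Entinostat, against 17.9 and 14 RPKM with DMSO (log2 change 1.10 ± 0.13 SE, adjusted p = 0.00059). GATA6 had 4.44 and 4.07 RPKM with Entinostat, against 2.32 and 1.79 RPKM with DMSO (log2 change 0.91 ± 0.15 SE, adjusted p = 0.0022). The enterocyte enzyme CA2 had 48.3 and 29.6 RPKM with Entinostat, against 17.5 and 14.5 RPKM with DMSO (log2 change 1.22 ± 0.37 SE, adjusted p = 0.029). KLF4 (0.65), KLF5 (0.50) and the brush border peptidase DPP4 (0.74) rose as well, which gave the list of intestinal differentiation genes this count: 6 of 15 rose and 2 fell, with a median log2 change of 0.30. The block gave 7 rises and 2 falls, and without 1 of the libraries 4 to 6 rose and 1 to 2 fell. Of Krüppel-like factors, zinc finger regulators of differentiation, 7 of 14 rose and 1 fell, with a median log2 change of 0.44. With the block 8 rose and 1 fell, and omission of 1 library left 2 to 6 rises and 1 fall. Quantile normalization gave 6 rises and 3 falls. Median of ratios scaling left 5 rises. KLF7 had 2.08 and 2.31 RPKM with Entinostat, against 1.14 and 1.08 RPKM with DMSO (log2 change 0.74 ± 0.11 SE, adjusted p = 0.0015). KLF16 had 12.6 and 12.6 RPKM with Entinostat, against 18.6 and 22.3 RPKM with DMSO (log2 change -0.67 ± 0.11 SE, adjusted p = 0.0019), and KLF14 (1.03) and KLF9 (0.44) rose. Of Wnt targets and stem cell genes, 7 of 19 rose and 2 fell, with a median log2 change of 0.22. Omission of 1 library left 3 to 7 rises and 0 to 1 falls, and the block gave 9 rises and 4 falls. A fit of all genes gave 7 rises and 1 fall and quantile normalization gave 7 rises and 1 fall. AXIN2, a feedback inhibitor of Wnt signalling, had 6.62 and 5.31 RPKM with Entinostat, against 2.42 and 2.76 RPKM with DMSO (log2 change 1.06 ± 0.16 SE, adjusted p = 0.0015). SP5 (1.14), EPHB2 (1.03), EPHB3 (1.47), NKD1 (0.77), SOX9 (0.61) and RGMB (0.64) rose, while TCF7L2 (-0.47) and MYC fell. Of the genes named here, CA2, EHF, EPHB3, KLF14, KLF5, KLF9, NKD1, RGMB, SOX9 and TCF7L2 lost their calls with 1 library left out. These were 10 without Entinostat replicate 1 (adjusted p = 0.054 to 0.24), 2 without Entinostat replicate 2 (0.058 to 0.13), 3 without DMSO replicate 1 (0.066 to 0.077) and 6 without DMSO replicate 2 (0.056 to 0.26). CA2, KLF9 and TCF7L2 also lost calls without a filter on low values, after median of ratios scaling, after quantile normalization, with a pseudocount of 0.1 or in a fit of the 4 libraries alone (adjusted p = 0.052 to 0.36). MYC, given below and not counted here, also lost its call with 1 library left out.

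Genes of the epithelial-mesenchymal transition rose on both sides of it. Of the list, 8 of 23 rose and 0 fell, with a median log2 change of 0.27. With the block 14 rose and 0 fell, and without 1 of the libraries 2 to 6 rose and 0 fell. A fit without the filter gave 3 rises and 0 falls. With the filter at a mean of 1 RPKM 20 members were tested, of which 6 rose and 0 fell. On the epithelial side E-cadherin, CDH1, had 25.2 and 23.2 RPKM with Entinostat, against 13.3 and 14.4 RPKM with DMSO (log2 change 0.78 ± 0.12 SE, adjusted p = 0.0015). OVOL2 had 2.21 and 2.03 RPKM with Entinostat, against 0.883 and 0.854 RPKM with DMSO (log2 change 0.94 ± 0.15 SE, adjusted p = 0.0015) and the keratin KRT8 rose by 0.39. On the mesenchymal side ZEB1, a repressor of CDH1, had 1.57 and 1.19 RPKM with Entinostat, against 0.58 and 0.28 RPKM with DMSO (log2 change 1.03 ± 0.21 SE, adjusted p = 0.0051). SNAI2 had 1.55 and 0.72 RPKM with Entinostat, against 0.0798 and 0.0188 RPKM with DMSO (log2 change 1.53 ± 0.43 SE, adjusted p = 0.021), and SNAI1 (0.92), fibronectin FN1 (1.33) and TGFB1 (0.36) also rose. The epithelial genes thus rose together with 3 repressors of CDH1, of which ZEB1 and SNAI2 stayed under 2 RPKM. FN1, KRT8, SNAI1, SNAI2, TGFB1 and ZEB1 lost their calls when 1 library was left out. Of them, 6 did so without Entinostat replicate 1 (adjusted p = 0.063 to 0.28), 2 without Entinostat replicate 2 (0.063 to 0.065), 5 without DMSO replicate 1 (0.068 to 0.17) and 6 without DMSO replicate 2 (0.056 to 0.16). FN1, KRT8, SNAI1, SNAI2 and TGFB1 also lost calls without a filter on low values, after median of ratios scaling or after quantile normalization (adjusted p = 0.052 to 0.086).

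Many genes of ribosome biogenesis fell. Of the list, which holds RNA polymerase I factors, processing factors of the small and large subunit and box H/ACA and C/D proteins, 0 of 61 rose and 33 fell, with a median log2 change of -0.42. The block gave 1 rise and 50 falls, and without 1 of the libraries 0 rose and 10 to 29 fell. Quantile normalization gave 1 rise and 20 falls. For RNA polymerase I, UBTF fell most. The subunit POLR1C had 25 and 22.8 RPKM with Entinostat, against 35.2 and 35.7 RPKM with DMSO (log2 change -0.56 ± 0.10 SE, adjusted p = 0.0023). RRN3, which brings the polymerase to the promoter (-0.50), and POLR1B (-0.50) fell as well. For assembly of the large subunit, WDR74 had 25.2 and 31.3 RPKM with Entinostat, against 56.9 and 59.1 RPKM with DMSO (log2 change -1.03 ± 0.17 SE, adjusted p = 0.0021). NOP16 had 25.8 and 29.8 RPKM with Entinostat, against 47.1 and 49.3 RPKM with DMSO (log2 change -0.79 ± 0.11 SE, adjusted p = 0.0011) and MRTO4 changed by -0.84. PPAN (-1.04) is annotated with a read-through transcript into its neighbour, so its reads may be shared. For the small subunit, BYSL had 16.8 and 20.3 RPKM with Entinostat, against 28.9 and 31.7 RPKM with DMSO (log2 change -0.70 ± 0.13 SE, adjusted p = 0.003). LTV1 had 31.3 and 33.9 RPKM with Entinostat, against 48.5 and 49.2 RPKM with DMSO (log2 change -0.58 ± 0.10 SE, adjusted p = 0.002), while NOB1 (-0.63) and IMP4 (-0.75) fell as well. DKC1, the pseudouridine synthase of H/ACA particles (-0.52), and GAR1 (-0.70) fell, and MYBBP1A, a nucleolar coregulator, had 15.9 and 19.5 RPKM with Entinostat, against 34.9 and 35.2 RPKM with DMSO (log2 change -0.97 ± 0.18 SE, adjusted p = 0.0032). The fibrillarin partner NOP56 (-0.24) and IMP3 (-0.28) fell least. MYC, the activator of this gene set, had 106 and 105 RPKM with Entinostat, against 150.4 and 162 RPKM with DMSO (log2 change -0.56 ± 0.15 SE, adjusted p = 0.017). Of the MYC network, 3 of 12 rose and 3 fell, with a median log2 change of 0.16. Omission of 1 library left 2 to 3 rises and 0 to 2 falls, and with the block 5 rose and 3 fell. The falls were those of MYC, MNT (-0.56) and MLX (-0.33) and the rises those of MLXIPL (0.98), MYCL (0.81) and MXI1 (0.38). DKC1, GAR1, IMP3, IMP4, MLX, MNT, MRTO4, MXI1, MYC, NOB1, NOP56, POLR1B and RRN3 lost their calls when 1 library was left out. The losses were 12 without Entinostat replicate 1 (adjusted p = 0.054 to 0.21), 4 without Entinostat replicate 2 (0.059 to 0.19), 6 without DMSO replicate 1 (0.053 to 0.22) and 9 without DMSO replicate 2 (0.052 to 0.26). IMP3, NOP56 and POLR1B also lost calls without a filter on low values, with the filter at a mean of 1 RPKM, after quantile normalization, with a pseudocount of 0.1, with a pseudocount of 1 or in a fit of the 4 libraries alone (adjusted p = 0.05 to 0.18).

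Cell cycle genes were described as 2 lists. Of genes of DNA replication and G1/S, 0 of 43 rose and 4 fell, with a median log2 change of -0.09. The block gave 6 rises and 10 falls, and omission of 1 library left 0 rises and 0 falls. A fit of all genes gave 0 rises and 1 fall, quantile normalization gave 2 rises and 1 fall and the 4 libraries fitted alone gave 5 rises and 8 falls. The licensing factor MCM2 had 66.4 and 78 RPKM with Entinostat, against 107 and 102 RPKM with DMSO (log2 change -0.54 ± 0.18 SE, adjusted p = 0.045). CDT1, which loads the MCM proteins, had 32.8 and 33.5 RPKM with Entinostat, against 49.4 and 46.8 RPKM with DMSO (log2 change -0.53 ± 0.16 SE, adjusted p = 0.026). GINS3 (-0.32) and TYMS fell too. Of genes of G2/M and mitosis, 0 of 38 rose and 6 fell, with a median log2 change of -0.04. With the block 1 rose and 8 fell, and without 1 of the libraries 0 rose and 0 to 4 fell. A fit of the 4 libraries alone gave 3 rises and 7 falls and quantile normalization gave 1 rise and 2 falls. The median turned to 0.02 after quantile normalization. Cyclin B1, CCNB1, had 86.5 and 93.8 RPKM with Entinostat, against 136 and 145 RPKM with DMSO (log2 change -0.64 ± 0.14 SE, adjusted p = 0.0074). The kinase PLK1 had 50.6 and 52.3 RPKM with Entinostat, against 80.6 and 90.5 RPKM with DMSO (log2 change -0.73 ± 0.17 SE, adjusted p = 0.01). AURKA (-0.63), PRC1 (-0.47), UBE2C (-0.39) and CDC25B (-0.23) fell by less. Calls that were lost with 1 library left out were those of AURKA, CCNB1, CDC25B, CDT1, GINS3, MCM2, PLK1, PRC1 and UBE2C. They were 9 without Entinostat replicate 1 (adjusted p = 0.074 to 0.31), 5 without Entinostat replicate 2 (0.055 to 0.23), 6 without DMSO replicate 1 (0.057 to 0.25) and 9 without DMSO replicate 2 (0.059 to 0.26). AURKA, CDC25B, CDT1, MCM2, PRC1 and UBE2C also lost calls without a filter on low values, after quantile normalization or in a fit of the 4 libraries alone (adjusted p = 0.05 to 0.26). Not counted here is TYMS, given above, whose call was also lost with 1 library left out.

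Genes of apoptosis moved in both directions. Of the BCL2 family, 4 of 19 rose and 6 fell, with a median log2 change of -0.11. Without 1 of the libraries 3 to 5 rose and 0 to 5 fell, and the block gave 6 rises and 8 falls. Among the BH3-only activators and sensitizers, BMF, which is released from the cytoskeleton under stress, had 1.77 and 1.18 RPKM with Entinostat, against 0.15 and 0.0914 RPKM with DMSO (log2 change 1.66 ± 0.22 SE, adjusted p = 0.00082). BCL2L11, which encodes BIM, had 5.73 and 5.5 RPKM with Entinostat, against 2.79 and 2.66 RPKM with DMSO (log2 change 0.93 ± 0.10 SE, adjusted p = 0.00052). PMAIP1, which encodes NOXA, had 33.9 and 32.5 RPKM with Entinostat, against 19.8 and 18.3 RPKM with DMSO (log2 change 0.78 ± 0.12 SE, adjusted p = 0.0014). The 3 genes were higher in both Entinostat libraries, were stable, and had replicates close together apart from BMF. BID (-0.55) and the effectors BAX (18.3 and 18.5 RPKM with Entinostat, against 26.2 and 24.5 RPKM with DMSO; log2 change -0.45 ± 0.10 SE, adjusted p = 0.0076) and BOK (-0.53) fell. Among survival proteins MCL1 rose by 0.33, and BCL2L1, which encodes BCL-XL, BCL2L2 (-0.69) and BCL2L13 (-0.28) fell. Of the death receptor pathway, 3 of 23 rose and 7 fell, with a median log2 change of -0.06. With the block 6 rose and 9 fell, and omission of 1 library left 2 to 3 rises and 1 to 7 falls. CFLAR, which encodes the caspase-8 regulator FLIP that the series is about, had 0.754 and 1.08 RPKM with Entinostat, against 1.94 and 2.07 RPKM with DMSO (log2 change -0.83 ± 0.17 SE, adjusted p = 0.0048), and RPKM per gene does not separate its long and short forms. Both Entinostat libraries were lower. The TRAIL receptor TNFRSF10A had 10.7 and 11.6 RPKM with Entinostat, against 17.9 and 18.6 RPKM with DMSO (log2 change -0.69 ± 0.11 SE, adjusted p = 0.002). The other TRAIL receptor, TNFRSF10B, had 40.2 and 35.8 RPKM with Entinostat, against 36.4 and 32.7 RPKM with DMSO (log2 change 0.13 ± 0.10 SE, adjusted p = 0.36) and overlapped between groups. BIRC3, a ubiquitin ligase of TNF receptor complexes, had 1.74 and 1.97 RPKM with Entinostat, against 0.506 and 0.718 RPKM with DMSO (log2 change 1.09 ± 0.13 SE, adjusted p = 0.00059), and BIRC2 (0.40) and TNFRSF21 (0.47) rose too. FAIM, an inhibitor of FAS signalling (-1.07), TNFRSF1A (-0.60), DAXX (-0.52), TRADD (-0.34) and TRAF2 (-0.31) fell. CASP8, the initiator caspase, was not called at 4.28 and 6.14 RPKM with Entinostat, against 7.78 and 8.1 RPKM with DMSO (-0.58, adjusted p = 0.067). Of the genes named here, BAX, BCL2L13, BCL2L2, BID, BIRC2, BOK, CFLAR, DAXX, FAIM, MCL1, TNFRSF1A, TNFRSF21, TRADD and TRAF2 lost their calls with 1 library left out. These were 13 without Entinostat replicate 1 (adjusted p = 0.056 to 0.29), 3 without Entinostat replicate 2 (0.053 to 0.064), 6 without DMSO replicate 1 (0.057 to 0.15) and 8 without DMSO replicate 2 (0.05 to 0.19). BCL2L13 and TRADD also lost calls after quantile normalization or in a fit of the 4 libraries alone (adjusted p = 0.051 to 0.081). CASP8 was called with the block (adjusted p = 0.0036). BCL2L1, given above and not counted here, also lost its call with 1 library left out.

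Targets of p53 showed no common direction. Of the list, 6 of 34 rose and 4 fell, with a median log2 change of 0.08. The block gave 10 rises and 5 falls, and omission of 1 library left 1 to 6 rises and 2 to 4 falls. MDM2 had 16.5 and 18.8 RPKM with Entinostat, against 20.4 and 20 RPKM with DMSO (log2 change -0.19 ± 0.12 SE, adjusted p = 0.24). Besides PMAIP1, the antiproliferative BTG1 had 7.86 and 6.55 RPKM with Entinostat, against 3.6 and 3.1 RPKM with DMSO (log2 change 1.00 ± 0.20 SE, adjusted p = 0.0043), and CYFIP2 (0.62), PLK2 (0.70), PERP (0.55) and SERPINB5 (0.54) rose. PHLDA3, an inhibitor of AKT, had 4.43 and 5.39 RPKM with Entinostat, against 10.0 and 8.67 RPKM with DMSO (log2 change -0.86 ± 0.14 SE, adjusted p = 0.002), and the nuclease AEN (-0.59), TRIAP1 (-0.55) and BAX fell. FAS, a death receptor and p53 target, was not called at 2.67 and 2.55 RPKM with Entinostat, against 4.43 and 3.15 RPKM with DMSO (-0.45, adjusted p = 0.14). BTG1, CYFIP2, PERP, PLK2, SERPINB5 and TRIAP1 lost their calls when 1 library was left out. Of them, 6 did so without Entinostat replicate 1 (adjusted p = 0.055 to 0.35), 4 without DMSO replicate 1 (0.063 to 0.13) and 4 without DMSO replicate 2 (0.12 to 0.18). CYFIP2 and PLK2 also lost calls without a filter on low values, with the filter at a mean of 1 RPKM, after median of ratios scaling or with a pseudocount of 1 (adjusted p = 0.05 to 0.1). BAX, given above and not counted here, also lost its call with 1 library left out.

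Of EGF family ligands and receptors, 1 of 10 rose and 2 fell, with a median log2 change of 0.02. Without 1 of the libraries 0 to 1 rose and 1 to 2 fell, and with the block 3 rose and 2 fell. A fit of the 4 libraries alone gave 2 rises and 2 falls. The median was -0.02 after median of ratios scaling and -0.15 after quantile normalization. EREG fell, while HBEGF, another ligand of the EGF receptor, had 6.37 and 5.64 RPKM with Entinostat, against 3.5 and 3.01 RPKM with DMSO (log2 change 0.79 ± 0.22 SE, adjusted p = 0.018), and the coreceptor ERBB2 fell by 0.40. Of ERK feedback and immediate early genes, 5 of 28 rose and 3 fell, with a median log2 change of 0.25. The block gave 13 rises and 3 falls, and without 1 of the libraries 1 to 6 rose and 0 to 3 fell. A fit without the filter gave 3 rises and 2 falls. FOS, an immediate early factor, had 114 and 35 RPKM with Entinostat, against 46.4 and 14.1 RPKM with DMSO (1.29, adjusted p = 0.34), so replicate 1 exceeded replicate 2 by more than Entinostat exceeded DMSO and the groups overlapped. Within each replicate number the Entinostat library was the higher one. EGR1 had the same order with 87.2 and 31 RPKM with Entinostat, against 40.5 and 19.2 RPKM with DMSO (0.89, adjusted p = 0.29). JUN had 27 and 11.4 RPKM with Entinostat, against 7.77 and 5.09 RPKM with DMSO (1.41, adjusted p = 0.052). FOSL1, a late FOS relative, had 19.2 and 37.6 RPKM with Entinostat, against 47.2 and 68.7 RPKM with DMSO (log2 change -1.07 ± 0.31 SE, adjusted p = 0.025). The ERK antagonist SPRY4 had 11.7 and 13.5 RPKM with Entinostat, against 21.6 and 19 RPKM with DMSO (log2 change -0.67 ± 0.13 SE, adjusted p = 0.0043). PHLDA1 (-0.64) fell, and IER5 (0.88), IER2 (1.07), ATF3 (0.75), the ERK phosphatase DUSP5 (0.50) and FOSL2 (0.37) rose. ATF3, DUSP5, FOSL1, FOSL2, HBEGF, IER2, PHLDA1 and SPRY4 lost their calls when 1 library was left out. The losses were 8 without Entinostat replicate 1 (adjusted p = 0.058 to 0.33), 1 without Entinostat replicate 2 (0.095), 4 without DMSO replicate 1 (0.051 to 0.15) and 5 without DMSO replicate 2 (0.071 to 0.23). ATF3, FOSL1, FOSL2 and IER2 also lost calls without a filter on low values, after median of ratios scaling, after quantile normalization or in a fit of the 4 libraries alone (adjusted p = 0.051 to 0.1). EGR1, FOS and JUN were called with the block (adjusted p = 4.6e-05 to 0.0014). ERBB2, given above and not counted here, also lost its call with 1 library left out.

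Among metabolic and stress genes, the integrated stress response list fell in part. Of its members, 0 of 23 rose and 8 fell, with a median log2 change of -0.13. With the block 4 rose and 9 fell, and omission of 1 library left 0 to 1 rises and 3 to 6 falls. The 4 libraries fitted alone gave 1 rise and 7 falls and a pseudocount of 0.1 gave 1 rise and 8 falls. The pseudokinase TRIB3 had 8.37 and 8.91 RPKM with Entinostat, against 18.3 and 14.7 RPKM with DMSO (log2 change -0.89 ± 0.17 SE, adjusted p = 0.0043). ATF5 had 5.96 and 5.28 RPKM with Entinostat, against 9.81 and 9.43 RPKM with DMSO (log2 change -0.73 ± 0.12 SE, adjusted p = 0.0019). The secreted glycoprotein STC2 had 4.96 and 6.06 RPKM with Entinostat, against 10.6 and 9.43 RPKM with DMSO (log2 change -0.81 ± 0.13 SE, adjusted p = 0.0018). All 3 were lower in both Entinostat libraries. The amino acid transporter subunits SLC7A11 (-0.84), SLC7A5 (-0.50) and SLC3A2 (-0.36), the serine synthesis enzyme PSAT1 (-0.32) and the tRNA synthetase AARS (-0.37) fell. Of cholesterol synthesis genes, 4 of 25 rose and 0 fell, with a median log2 change of 0.32. Omission of 1 library left 1 to 2 rises and 0 falls, and the block gave 8 rises and 0 falls. A fit of all genes gave 2 rises and 0 falls, median of ratios scaling gave 2 rises and 0 falls and the 4 libraries fitted alone gave 11 rises and 0 falls. TM7SF2, a sterol reductase, had 24.7 and 21.4 RPKM with Entinostat, against 10.6 and 9.2 RPKM with DMSO (log2 change 1.18 ± 0.24 SE, adjusted p = 0.0048). SQLE, the squalene epoxidase, had 44.7 and 47.9 RPKM with Entinostat, against 25.8 and 32.5 RPKM with DMSO (log2 change 0.67 ± 0.13 SE, adjusted p = 0.0039). HSD17B7 (0.50), another enzyme of the pathway, rose. INSIG1, a feedback regulator of the pathway, was not called at 57.8 and 58.5 RPKM with Entinostat, against 21.8 and 24.9 RPKM with DMSO (1.30, adjusted p = 0.064). Of antigen presentation genes, 5 of 19 rose and 0 fell, with a median log2 change of 0.32. With the block 11 rose and 1 fell, and without 1 of the libraries 0 to 5 rose and 0 to 1 fell. Quantile normalization gave 2 rises and 2 falls, a fit without the filter gave 3 rises and 0 falls and the filter at 1 RPKM gave 3 rises and 0 falls. The risers among the genes tested were MICA, MICB (0.66), HLA-F (0.65), HLA-E (0.64) and HLA-DMA (0.56). MICA, a stress ligand of natural killer cells, had 4.44 and 3.73 RPKM with Entinostat, against 2.24 and 2.34 RPKM with DMSO (log2 change 0.71 ± 0.20 SE, adjusted p = 0.023). MHC genes share sequence, so their reads may be shared. Of interferon response genes, 4 of 23 rose and 0 fell, with a median log2 change of 0.13. The block gave 9 rises and 3 falls, and without 1 of the libraries 0 to 3 rose and 0 to 1 fell. Quantile normalization gave 4 rises and 1 fall. Quantile normalization turned the median to -0.02. OASL had 4.21 and 3.25 RPKM with Entinostat, against 1.35 and 1.18 RPKM with DMSO (log2 change 1.25 ± 0.28 SE, adjusted p = 0.0081), and IRF7 (1.26), HERC5 (0.69) and STAT2 (0.31) rose. Of metallothionein genes with their regulator MTF1, 2 of 6 rose and 0 fell, with a median log2 change of 0.69. Omission of 1 library left 0 to 1 rises and 0 falls, and with the block 6 rose and 0 fell. The 4 libraries fitted alone gave 4 rises and 0 falls and median of ratios scaling gave 1 rise and 0 falls. MT1X had 196 and 125 RPKM with Entinostat, against 59.6 and 52.7 RPKM with DMSO (log2 change 1.47 ± 0.36 SE, adjusted p = 0.011), and MTF1 rose by 0.28. MT2A, the most abundant, had 1907 and 1475 RPKM with Entinostat, against 872 and 876 RPKM with DMSO (0.94, adjusted p = 0.062) and was not called. Calls that were lost with 1 library left out were those of AARS, HERC5, HLA-DMA, HLA-E, HLA-F, HSD17B7, IRF7, MICA, MICB, MT1X, MTF1, OASL, PSAT1, SLC3A2, SLC7A11, SLC7A5, STAT2 and TM7SF2. They were 18 without Entinostat replicate 1 (adjusted p = 0.053 to 0.33), 5 without Entinostat replicate 2 (0.069 to 0.16), 9 without DMSO replicate 1 (0.087 to 0.22) and 14 without DMSO replicate 2 (0.05 to 0.22). HLA-DMA, HLA-E, HLA-F, HSD17B7, IRF7, MICA, MTF1, PSAT1, SLC3A2, SLC7A11 and STAT2 also lost calls without a filter on low values, after median of ratios scaling, after quantile normalization, with a pseudocount of 1 or in a fit of the 4 libraries alone (adjusted p = 0.05 to 0.14). INSIG1 and MT2A were called with the block (adjusted p = 0.0017 to 0.021).

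Calls were counted by level of expression, first as the mean over the 16 libraries. That mean also set the filter and includes the libraries with Entinostat, so a gene silent with DMSO enters a low bin only where other libraries raise its mean. Of 953 genes with a mean of 0.5 to 1 RPKM, 24.7% rose and 2.52% fell, and of 1231 genes from 1 to 2 RPKM, 29.5% rose and 4.39% fell. From 5 to 10 RPKM the shares were 16% and 12.8%, and from 20 to 50 RPKM 4.87% of 1867 genes rose and 21.7% fell. Above 100 RPKM 3.15% of 540 genes rose and 8.52% fell. Rises of at least 1 made up 8.2% of genes from 1 to 2 RPKM and 0.589% of those from 20 to 50 RPKM. With genes placed by their mean in the DMSO libraries of p53-/- cells instead, which hold no Entinostat and are not in the comparison (a choice made after seeing the data), 29.3% of 893 genes from 0.5 to 1 RPKM rose and 1.34% fell. By the same placing 13.6% of 2330 genes from 5 to 10 RPKM rose and 12% fell, and 3.35% of 1852 genes from 20 to 50 RPKM rose and 23.1% fell. The 525 genes under 0.5 RPKM there (45% rose and 1.71% fell) passed the filter through other libraries, so their share of rises is set in part by the filter. RPKM are shares of a library, and whether total RNA per cell changed was not measured. Among annotated classes, 15.4% of 11630 protein-coding genes rose and 12.9% fell, and 13.4% of 403 long noncoding genes rose and 4.47% fell.

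The response was larger in replicate 1 than in replicate 2. For the 369 genes that rose by at least 1, the median change within replicate 1 was 1.37 and within replicate 2 it was 1.13, and for the 80 that fell by at least 1 it was -1.36 and -1.01. Entinostat replicate 1 was above Entinostat replicate 2 in 351 of the 369 rises (95.1%) and in 2 of the 80 falls (2.5%), against 51.9% of all genes tested. DMSO replicate 1 was above DMSO replicate 2 in 72.9% of the rises and 31.2% of the falls, against 56.7% of all genes. The same genes in p53-/- cells, which share no library with p53+/+ cells, had a median of 1.24 in replicate 1 and 0.94 in replicate 2 for the rises, and -1.17 and -0.80 for the falls. There Entinostat replicate 1 was above replicate 2 in 353 of the 369 (95.7%) and in 4 of the 80 (5%).

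**Figure D4:**
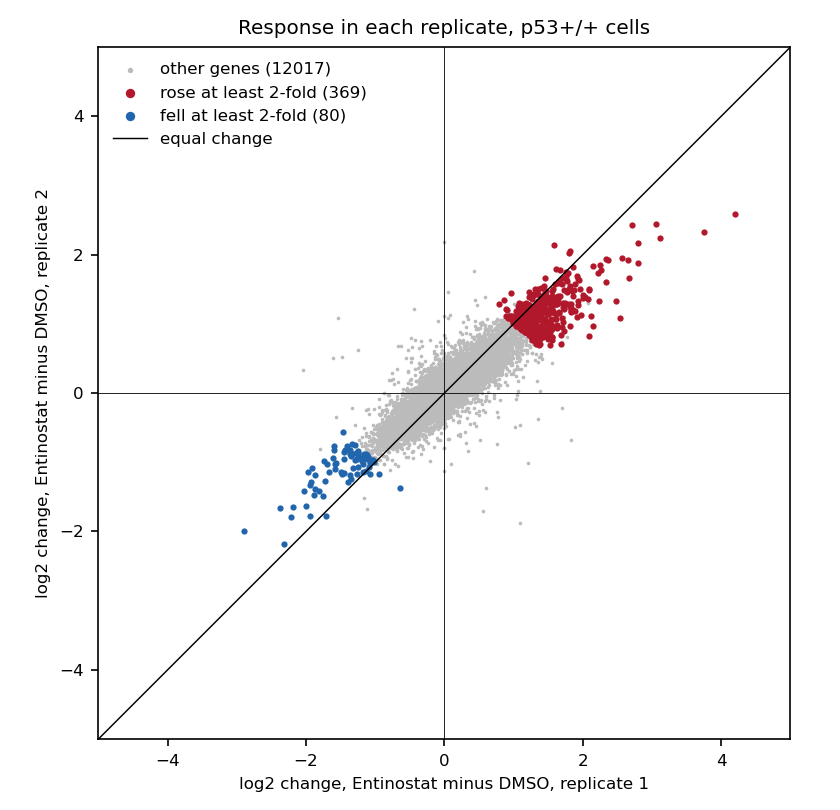
Log2 change of RPKM + 0.5, Entinostat minus DMSO, within replicate 1 (horizontal) and within replicate 2 (vertical) in p53+/+ cells, 1 point a gene, with the 369 genes that rose and the 80 that fell by at least 1 in colour and a line of equal change. The red points lie mostly below the line and the blue points mostly above it, with medians of 1.37 and 1.13 for the rises and -1.36 and -1.01 for the falls.

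The same step was also measured in 2 pairs of groups that share no library with this comparison, one on top of Nutlin-3A and one without p53. All the comparisons come from the same fit and share its estimate of error for each gene. Their calls are therefore not independent, and the overlaps below are descriptive. Adding Entinostat to Nutlin-3A in p53+/+ cells changed 4323 genes (34.7%), of which 2072 rose (16.6%) and 2251 fell (18.1%). It changed 6529 with the block, 2305 in a fit of its 4 libraries alone and 1698 to 4818 with 1 library left out. Entinostat against DMSO in p53-/- cells changed 3520 (28.2%), of which 1868 rose (15%) and 1652 fell (13.3%). The count was 5677 with the block and 838 to 2988 with 1 library left out. Of the 1887 rises, 1394 (73.9%) were among the 2072 rises on Nutlin-3A (67.3% of those) and 1438 (76.2%) among the 1868 rises in p53-/- cells (77%). Of the 1547 falls, 1188 (76.8%) were among the 2251 on Nutlin-3A (52.8%) and 1204 (77.8%) among the 1652 in p53-/- cells (72.9%). Across the 12466 genes, which are not independent of each other, the log2 changes correlated with r = 0.874 for Nutlin-3A and r = 0.906 for p53-/- cells.

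**Figure D5:**
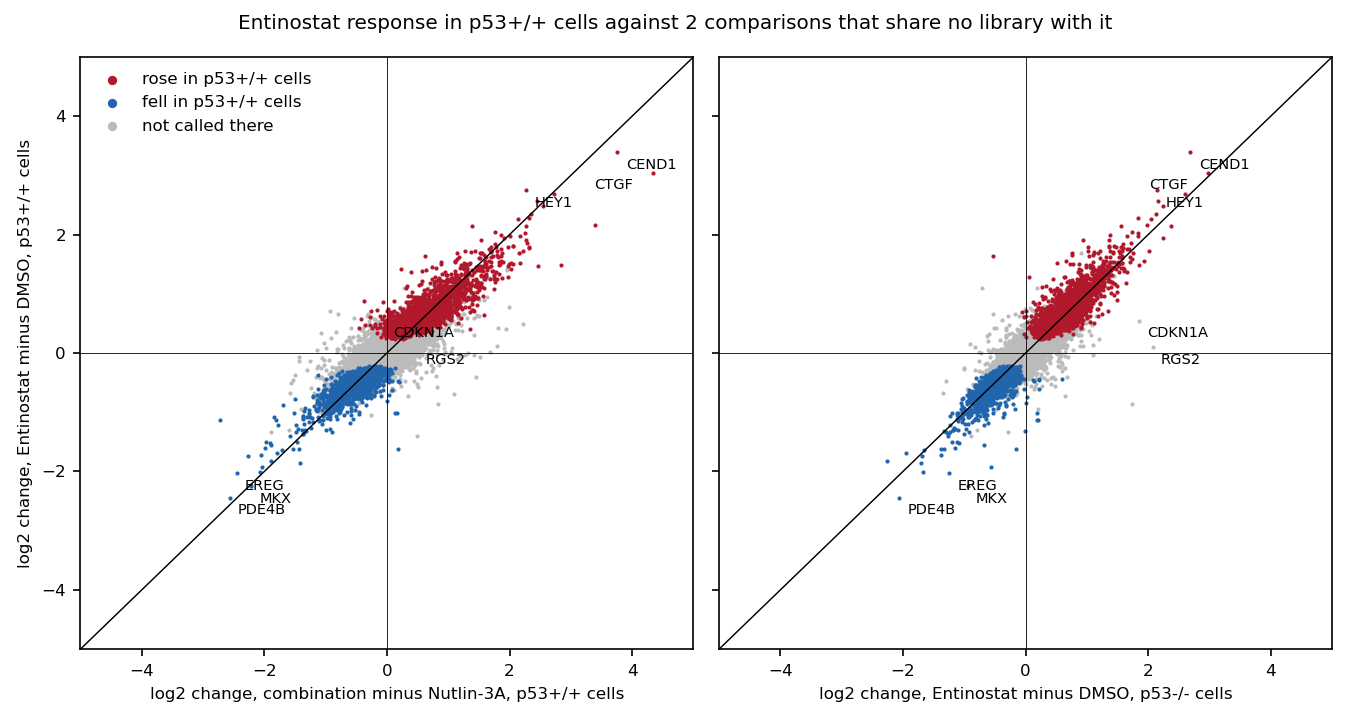
Log2 change with Entinostat against DMSO in p53+/+ cells (vertical) against that with the combination over Nutlin-3A in p53+/+ cells (left) and with Entinostat over DMSO in p53-/- cells (right), 1 point a gene, coloured by the call on the vertical axis, with a line of equal change. The 369 genes that rose by at least 1 lie to the right of 0 in both panels, all but 1 in the right one, and CDKN1A and RGS2 lie right of the line in p53-/- cells.

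Genes with a change of at least 1 kept their direction in almost every case. All 369 rises were also higher with the combination than with Nutlin-3A (351 called) and 368 were higher in p53-/- cells (320 called), with medians of 1.26 and 1.10 beside 1.23 here. Of the 80 falls 77 were lower in each of the other comparisons (74 and 61 called), with medians of -1.29 and -1.0 beside -1.16. CTGF had 72.5 and 21.3 RPKM with the combination, against 1.8 and 1.2 RPKM with Nutlin-3A in p53+/+ cells (log2 change 4.33). In p53-/- cells it had 41.9 and 12.4 RPKM with Entinostat, against 2.7 and 2.27 RPKM with DMSO (2.97). CEND1 had 15.9 and 4.36 RPKM with the combination, against 0.181 and 0.135 RPKM with Nutlin-3A (3.76), and in p53-/- cells 7.27 and 2.52 RPKM with Entinostat, against 0.334 and 0.176 RPKM with DMSO (2.69). In every pair of these groups the libraries with Entinostat were the higher ones.

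CFLAR, UBTF, BMF, H1F0, MAPK8IP2 and EHF were also set side by side. CFLAR had 1.28 and 1.87 RPKM with the combination, against 4.14 and 3.71 RPKM with Nutlin-3A (-1.11, adjusted p = 0.00095). In p53-/- cells it had 1.16 and 1.43 RPKM with Entinostat, against 2.17 and 2.32 RPKM with DMSO (-0.62, adjusted p = 0.018), so it was lower with Entinostat in each of the 3 settings. UBTF changed by -1.20 on Nutlin-3A and by -1.03 in p53-/- cells, and BMF by 1.58 and 1.10. H1F0 had 199.9 and 269 RPKM with the combination, against 169 and 208 RPKM with Nutlin-3A (0.31, adjusted p = 0.11). In p53-/- cells it had 256 and 222 RPKM with Entinostat, against 133 and 124 RPKM with DMSO (0.89, adjusted p = 0.0016). MAPK8IP2 in p53-/- cells had 2.79 and 2.91 RPKM with Entinostat, against 3.01 and 2.96 RPKM with DMSO (-0.06, adjusted p = 0.81). EHF, which p53-/- cells barely expressed, had 0.233 and 0.13 RPKM with Entinostat, against 0.105 and 0.0879 RPKM with DMSO (0.19, adjusted p = 0.63).

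The difference between the genotypes was tested directly as the Entinostat response in p53+/+ cells minus that in p53-/- cells. No gene was called by limma (0 of 12466, lowest adjusted p = 1, 164 genes or 1.32% at an unadjusted p under 0.05). By chance 623 genes would be expected at that unadjusted threshold, so this fit was conservative. Its lack of calls does not show equal responses. The 95% interval of the difference reached a median of 0.42 to either side and lay within 1 of 0 for 92.5% of genes. Calls and interval come from a fit in which deviations shared by libraries of the same number count as error. With the block 4 genes were called, out of 482 at an unadjusted p under 0.05. The CDK inhibitor CDKN1A differed by -1.30 (adjusted p = 0.022), and in p53-/- cells it had 91 and 49.9 RPKM with Entinostat, against 23.7 and 14.1 RPKM with DMSO. RGS2, a regulator of G protein signalling, differed by -1.97 (adjusted p = 0.01) with 34.9 and 22.1 RPKM with Entinostat, against 36.1 and 18.4 RPKM with DMSO in p53+/+ cells, and 15.9 and 9.44 RPKM with Entinostat, against 2.66 and 2.42 RPKM with DMSO in p53-/- cells. MKX differed by -1.31 (adjusted p = 0.01). Without a filter on low values 14 genes were called, none of them among the 4 called with the block.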

How the data were processed

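Per the labels, stranded libraries of polyadenylated RNA were sequenced, and the submitters' processing notes name Bowtie2, Partek and the build hg19. Of the versions, the gene models and the strand setting of the counting nothing is said in the sources used here. The deposited values are RPKM per gene, which the authors computed from 45902800 to 55507300 alignments per library as the deposited alignment totals give them. They are not counts, so no count model was used and no counting interval is given.

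For this report log2(RPKM + 0.5) of the 12466 genes with a mean of at least 0.5 RPKM was fitted with limma 3.58.1 (R 4.3.3, moderated test with a mean-dependent prior) as 8 group means over 16 libraries (8 residual and 4.09 prior degrees of freedom), two-sided, with Benjamini-Hochberg adjustment over all genes tested. Genes are called at an adjusted p under 0.05. The same fit gave the other contrasts. The code was tested on simulated data with known changes, for the comparison in p53+/+ cells only. Noise was drawn independently for each library, so that test does not cover deviations shared by libraries of the same number.

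Genes are named by this rule: CEND1, HEY1, DHRS2, CDKN1A, MDM2, CFLAR and TNFRSF10B always; the 14 largest rises and 14 largest falls among called genes with a mean of at least 1 RPKM whose groups do not overlap; the 10 rises and 10 falls with the largest moderated t among stable genes that changed by at least 1; and in each list the 6 called members that changed most, with further members described. Beyond the rule, the genes other than CDKN1A called for the genotype difference with the block, NEAT1, and the choice of MAPK8IP2 and EHF for p53-/- cells came after their values were seen. Members and lists were chosen with earlier results of these data known. Counts within a list are set beside those of all genes and were not tested.

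The pairing of replicate numbers was checked from the deviations of libraries from their group means, which correlated between libraries of the same number with r = 0.275 to 0.778 (median 0.425) over 28 pairs of groups, and with r = 0.47 between p53+/+ Entinostat and DMSO. The numbers were therefore taken to pair the libraries, and fits with the number as a block are given beside the counts. The calls, SE, stable genes and ranks are from the fit without the block. The other alternatives were pseudocounts of 0.1 and 1, no filter or a filter at a mean of 1 RPKM, median of ratios scaling, quantile normalization, a fit of the libraries compared alone, and omission of each library. Promoters came from RefSeq on GRCh38.p14 and were matched by symbol for 34 of 44 genes named by the rule (77.3%), so no composition over gene sets is given. They are set beside hg19 values by gene name alone. Some genes are not reported here.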

Additional observations from a re-analysis of the deposited data

How the results depend on the processing

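The comparison with DMSO in p53+/+ cells gave 3434 calls, and other pseudocounts, filters and scalings kept that count within 1.5 times. With the block on the replicate number it was 5565, and with 1 library left out 779 to 2797. Adding Entinostat to Nutlin-3A gave 4323 calls, 6529 with the block, 2305 in a fit of its 4 libraries alone and 1698 to 4818 with 1 library left out. In p53-/- cells the count was 3520, with 5677 under the block and 838 to 2988 with 1 library left out. For the difference between genotypes the count was 0, with 4 under the block and 14 without a filter on low values. The share of the p53+/+ calls that were rises was 55%, against 46.6% after median of ratios scaling and 47% after quantile normalization, and the cause of that shift was not tested. Of 254 genes followed by name, none that was called changed direction under any alternative run. Leaving out Entinostat replicate 1 ended 151 of their calls, DMSO replicate 2 113, DMSO replicate 1 79 and Entinostat replicate 2 34. The block added 11 calls and ended none. With 2 libraries a group, and depth known only as total alignments, low genes carry the widest error.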

Other observations

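Some genes under the filter on low values were also called. In a fit of every gene above 0, 486 of 8146 such genes were higher with Entinostat than with DMSO in p53+/+ cells at an adjusted p under 0.05 by limma, and 31 were lower, with 21 rises of at least 1 on the log2(RPKM + 0.5) scale. Over all 20612 genes that fit gave 2000 rises and 1313 falls, so both shares were lower under the filter. The genes named here were chosen after their values were seen. IGFBP3, which binds insulin-like growth factors in the blood, had 1.83 and 0.747 RPKM with Entinostat, against 0.08 and 0.0905 RPKM with DMSO (log2 change 1.54, adjusted p = 0.023). DIRAS3, an imprinted small GTPase that restrains growth, had 1.17 and 1.3 RPKM with Entinostat, against 0.107 and 0.282 RPKM with DMSO (1.33, adjusted p = 0.00086), while in p53-/- cells it had 0 and 0.0206 RPKM with Entinostat, against 0.0214 and 0.0628 RPKM with DMSO. The neural adhesion molecule NCAM1 had 1.29 and 0.448 RPKM with Entinostat, against 0.0938 and 0.0791 RPKM with DMSO (1.15, adjusted p = 0.044). The tight junction gene CLDN1 had 0.681 and 0.376 RPKM with Entinostat, and 0.0122 RPKM and a listed 0 with DMSO (1.01, adjusted p = 0.02). ACSBG1, an acyl-CoA synthetase of the brain, had 1.55 and 0.895 RPKM with Entinostat, against 0.0565 and 0.133 RPKM with DMSO (1.51, adjusted p = 0.0056). None of these 5 genes passed the filter over the 16 libraries.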
